A study of Mus musculus with 6 samples.

Results

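The angiopoietin and Tie receptor axis was examined as 6 genes taken by symbol from the 24421 rows of the deposited table: the ligands Angpt1 and Angpt2, the receptors Tek and Tie1, the receptor phosphatase Ptprb and the transcription factor Foxo1. All 6 symbols were found. Expression had been measured by RNA sequencing of retinal endothelial cell preparations from C57BL/6 mouse pups at postnatal day 7. The 3 mutant libraries came from pups with the genotype Anxa3 fl/fl;Tie2-Cre and the 3 control libraries from Anxa3 fl/fl pups, so both groups carry the floxed alleles and the mutants alone carry Cre. The study asked how endothelial expression changes when annexin A3 is lost, in relation to the crossing of retinal arteries and veins. Cre expression and Anxa3 loss come together in this design and cannot be told apart. Tie2 is the protein encoded by Tek, so the recombinase is driven by regulatory sequence of one of the 6 genes, which is active in endothelial cells and in part of the blood lineage. How many pups went into a library is not in the labels, and the spread that the p-values rest on may be technical.

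Angiopoietin 1, made mainly by mural and other perivascular cells, activates the receptor Tie2 on endothelial cells and stabilises vessels. Angiopoietin 2 is released by endothelial cells themselves, is most abundant where vessels sprout and remodel, and can act as a weak agonist or an antagonist of the same receptor. Tie1 has no ligand that activates it strongly on its own and modulates Tie2 in shared complexes, the phosphatase VE-PTP (Ptprb) removes phosphate from Tie2, and Tie2 signalling through PI3 kinase and AKT keeps FOXO1 out of the nucleus, where it would drive Angpt2 and other targets.

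The regulatory sequence directly upstream of the receptor genes is shown because Tek lends its name and regulatory elements to the Cre transgene. A further reason is that Tek and Tie1 varied together over the libraries, though with the pan-endothelial genes as well. RefSeq promoters of build GRCm38.p6 were given for 3 of the 6 genes, Tek, Tie1 and Foxo1. The stretch for Tek is the 250 bases before the RefSeq start, at chr4:94739039-94739288 on the plus strand. For Tie1, on the minus strand, 212 of the 250 bases lie in an annotated exon, and the 38 bases before that exon, at chr4:118490062-118490099, are printed. Both read 5′ to 3′, and capitals mark the core GGAA bound by ETS factors, or TTCC, its reverse complement.
Tek: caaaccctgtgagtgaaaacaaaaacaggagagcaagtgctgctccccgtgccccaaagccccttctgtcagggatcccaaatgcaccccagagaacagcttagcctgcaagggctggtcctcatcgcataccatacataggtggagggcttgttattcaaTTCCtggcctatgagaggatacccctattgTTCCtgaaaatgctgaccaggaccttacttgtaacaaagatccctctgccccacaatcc
Tie1: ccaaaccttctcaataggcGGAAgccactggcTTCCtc
Over the full 250 bases the core occurred 2 times for Tek, 7 times for Tie1 and 2 times for Foxo1, counting both strands. It occurred at least once in 93.4% of 32536 promoter windows of that length, with a median of 3. At least 7 matches were present in 3.82% of windows. The FOXO motif GTAAACA, present in 3.17% of windows on either strand, was in none of the 3, and the GATA motif AGATAA, present in 9.97%, was in none of them either.

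Anxa3, the targeted gene, measured 9.78, 12.5 and 15.1 FPKM in mutant replicates 1, 2 and 3, and 18.7, 17.7 and 43.4 FPKM in control replicates 1, 2 and 3 (FPKM corrects fragment counts for the length of a gene and the depth of its library). The groups did not overlap, and the adjusted p over all genes was 1 (limma). Between 21386054 and 30904076 reads were recovered per library, and 13332 to 13695 genes reached 1 FPKM. The summed level of 20 pan-endothelial genes, none of them among the 6, ran from 672 to 970 FPKM in mutants and from 638 to 1473 FPKM in controls, with no marker at 0 in all libraries. Control replicate 3 held 1.97 times the mean of the other 5 libraries. Endothelial markers were thus expressed, with no other retinal sample to set their level against. The 15 photoreceptor genes summed to 4817 to 6287 FPKM in mutants and 3968 to 5778 FPKM in controls. This was more than the endothelial genes in every library. Muller glia and astrocyte genes (12) summed to 456 to 553 FPKM in mutants and 520 to 539 FPKM in controls. Inner retinal neuron genes (18) summed to 406 to 414 FPKM in mutants and 349 to 444 FPKM in controls. Pericyte genes (12) summed to 267 to 315 FPKM in mutants and 227 to 414 FPKM in controls. In such preparations, fewer endothelial cells and less RNA per cell cannot be told apart.

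None of the 5 genes of the axis that could be tested passed the test between mutant and control libraries, and for all 6 the groups overlapped. The 95% intervals reached down to 0.516-fold for Tie1 and 0.545-fold for Ptprb on the linear FPKM + 1 scale, so they include lower levels of that size. Tek, Tie1, Ptprb and Foxo1 had lower means in mutants and Angpt2 a slightly higher one, all by less than the spread between control libraries. In 5 of the 6 genes the highest value belonged to control replicate 3, the library with the most endothelial signal, and only Angpt1 was lowest there. Among 13622 genes tested with limma, 0 had an adjusted p under 0.05, which is 0% of them. In all 165 genes, 1.21%, had an unadjusted p under 0.05, and none of the 5 was among them. Limma voom on the recovered reads also called 0 genes. All 3 mutants lay above all 3 controls for 2.79% of genes and below them for 1.56%.

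**Figure D1:**
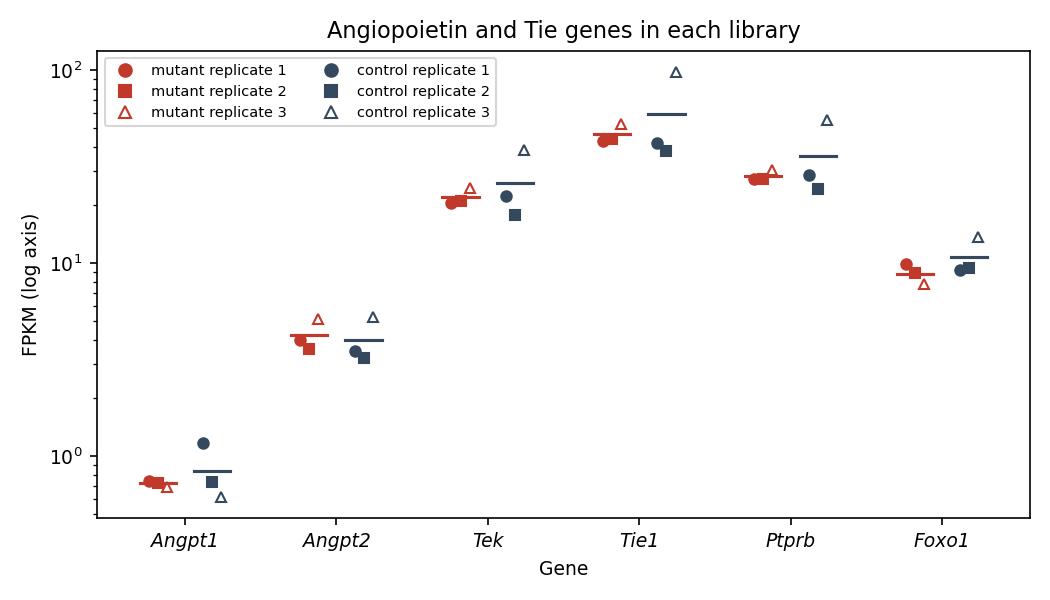
FPKM (log axis) of the 6 genes in each library, mutants in red left of controls in dark blue, with a symbol for each replicate and a horizontal line at the group mean. Control replicate 3 is the highest point for Angpt2, Tek, Tie1, Ptprb and Foxo1 and the lowest for Angpt1.

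Within every library the genes took the same order, from Tie1 through Ptprb, Tek, Foxo1 and Angpt2 down to Angpt1. FPKM is per gene length, so these levels can be set against each other. Tie1 was 1.47 to 1.76 times Ptprb, and Ptprb 1.23 to 1.44 times Tek, within a library. Each of these pairs overlapped when values were compared across libraries, since Tie1 was as low as 38.1 FPKM in one library and Ptprb reached 55.4 FPKM in another. Tek, by contrast, was at least 17.7 FPKM and Foxo1 at most 13.6 FPKM, Foxo1 at least 7.80 and Angpt2 at most 5.27 FPKM, and Angpt2 at least 3.24 and Angpt1 at most 1.16 FPKM.

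Of the ligands, Angpt1 was barely expressed. It measured 0.748, 0.729 and 0.691 FPKM in mutant replicates 1, 2 and 3, and 1.16, 0.737 and 0.617 FPKM in control replicates 1, 2 and 3. The mutant values fell inside the range of the controls, where replicate 1 was the high library. Those values rested on 68, 98 and 83 reads in mutants and on 155, 77 and 69 reads in controls. With 1 FPKM reached in a single library, Angpt1 was under the filter of 1 FPKM in 3 libraries and did not enter the fit. Its log2 difference was -0.08 on the log2(FPKM + 1) scale (two-sided exact permutation p = 0.8, where 20 arrangements of 3 against 3 libraries cannot give less than 0.1). An antisense gene, Gm17473, shares 737 of its 5205 annotated exonic bases, and the library kit does not mark strand, so reads of the pair cannot be told apart there. The gene lies at chr15:42424723-42676977 on the minus strand.

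Angpt2 was the only one of the 6 with a higher mean in mutants. It measured 4.001, 3.60 and 5.12 FPKM in mutant replicates 1, 2 and 3, and 3.50, 3.24 and 5.27 FPKM in control replicates 1, 2 and 3, from 279 to 507 reads. In both groups replicate 3 was the high library, and the groups overlapped over nearly their whole range. The mean was 4.24 ± 0.788 FPKM in mutants and 4.005 ± 1.11 FPKM in controls (SD, n = 3 each). The log2 difference was 0.08 ± 0.19 (standard error), and the limma 95% interval ran from -0.36 to 0.51 (adjusted p = 1), or 0.782-fold to 1.43-fold on the linear FPKM + 1 scale. Without control replicate 3 it was 0.25 and without mutant replicate 3 it was -0.04. Angpt2, at chr8:18690263-18741562 on the minus strand, lies inside Mcph1, which is transcribed from the other strand at 3.46 to 4.82 FPKM, although no annotated exonic bases are shared. Without strand, intronic reads of Mcph1 over Angpt2 exons cannot be told apart from reads of Angpt2.

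The receptor genes were abundant and varied with the pan-endothelial genes over the libraries, most of all in control replicate 3. Tek, the Tie2 receptor, measured 20.4, 21.0 and 24.5 FPKM in mutant replicates 1, 2 and 3, and 22.2, 17.7 and 38.5 FPKM in control replicates 1, 2 and 3. The 3 mutants lay close together, between controls 2 and 3. Its mean was 22.0 ± 2.23 FPKM in mutants and 26.1 ± 10.9 FPKM in controls (SD, n = 3 each), with 2009 to 4681 reads behind a value. The log2 difference was -0.17 ± 0.25 (standard error), and the limma 95% interval ran from -0.74 to 0.41 (adjusted p = 1). Without control replicate 3 it was 0.14. Tek lies at chr4:94739289-94874976 on the plus strand, and no annotated gene overlaps it.

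Tie1, the partner receptor, had the highest level of the 6. It measured 43.0, 44.2 and 52.8 FPKM in mutant replicates 1, 2 and 3, and 42.1, 38.1 and 97.8 FPKM in control replicates 1, 2 and 3. All 3 mutants exceeded controls 1 and 2, and control replicate 3 stood at 2.44 times the mean of those 2 controls. The mean was 46.7 ± 5.38 FPKM in mutants and 59.3 ± 33.3 FPKM in controls (SD, n = 3 each), from 3510 to 9819 reads. The log2 difference was -0.21 ± 0.32 (standard error), and the limma 95% interval ran from -0.95 to 0.53 (adjusted p = 1). The difference became 0.21 without control replicate 3. Tie1 lies at chr4:118471191-118490061 on the minus strand.

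Ptprb, the phosphatase that acts on Tie2 and VE-cadherin, followed the same pattern. It measured 27.1, 27.2 and 30.2 FPKM in mutant replicates 1, 2 and 3, and 28.7, 24.2 and 55.4 FPKM in control replicates 1, 2 and 3. The mutants again sat within the span of the controls. Its log2 difference was -0.26 ± 0.27 (standard error), and the limma 95% interval ran from -0.88 to 0.36 (adjusted p = 1). It was 0.09 without control replicate 3. Ptprb had the most reads of the 6, from 6807 to 17085, over a counted length of 11912 bases. It lies at chr10:116275523-116389535 on the plus strand.

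Foxo1, the transcription factor downstream of Tie2, measured 9.85, 8.84 and 7.80 FPKM in mutant replicates 1, 2 and 3, and 9.19, 9.41 and 13.6 FPKM in control replicates 1, 2 and 3. Only mutant replicate 1 exceeded any control. The mean was 8.83 ± 1.02 FPKM in mutants and 10.7 ± 2.502 FPKM in controls (SD, n = 3 each). The log2 difference was -0.24 ± 0.16 (standard error), and the limma 95% interval ran from -0.62 to 0.14 (unadjusted p = 0.178, adjusted p = 1). It was -0.07 without control replicate 3. Foxo1, at chr3:52268336-52353221 on the plus strand, shares 674 of 8665 annotated exonic bases with the antisense gene Gm20402.

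Control replicate 3 therefore decided the direction for Tek, Tie1 and Ptprb but not for Foxo1 or Angpt2. The labels letter the libraries. Mutant replicate 1 (B) stands with control replicates 1 and 2 (A and C), and mutant replicates 2 and 3 (E and F) with control replicate 3 (D), a division also made by the first principal component, which held 44.9% of the variance. The labels do not explain the letters. Within A to C the log2 differences were 0.04 for Tek, 0.10 for Tie1, 0.04 for Ptprb, 0.08 for Foxo1 and 0.20 for Angpt2. Within D to F, where control replicate 3 is the lone control, they were -0.74 for Tek, -1.002 for Tie1, -0.93 for Ptprb, -0.65 for Foxo1 and -0.24 for Angpt2, and the pan-endothelial mean differed by -0.75. Each of these 5 genes thus lay higher in the mutant within one set and lower within the other, and no test was run within a set. With the sets as a block in the fit across all genes, the log2 differences were -0.35 for Tek, -0.45 for Tie1, -0.44 for Ptprb, -0.29 for Foxo1 and -0.02 for Angpt2. The limma adjusted p was 0.73 for Tek, 0.723 for Tie1, 0.72 for Ptprb, 0.742 for Foxo1 and 0.983 for Angpt2.

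**Figure D2:**
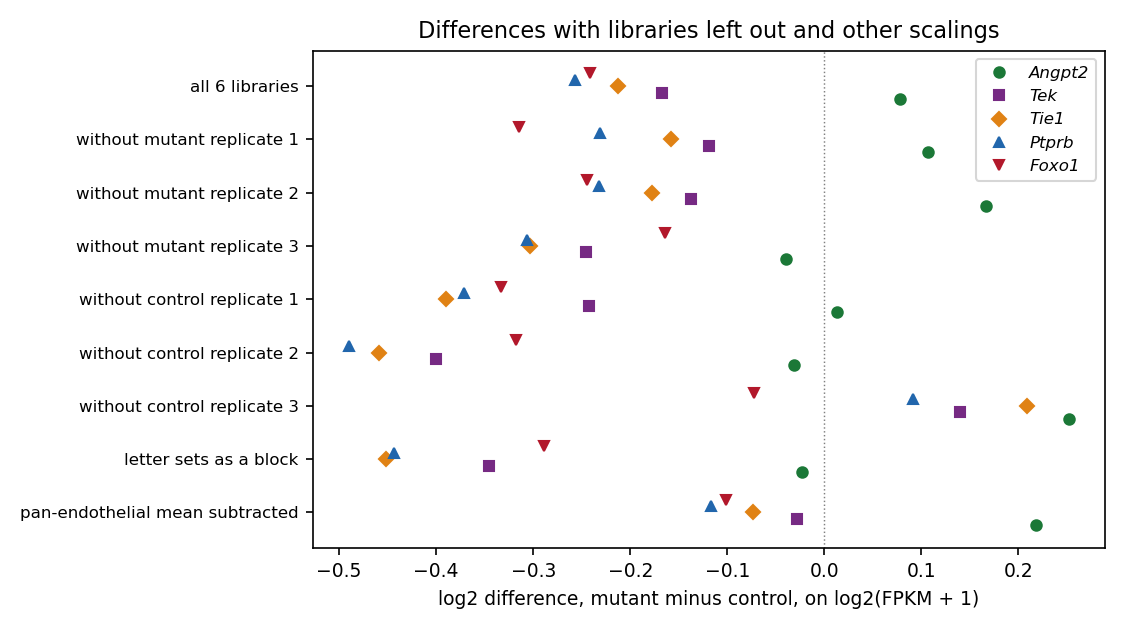
Log2 difference, mutant minus control, of the 5 tested genes (x axis) with all 6 libraries, with each library left out, with the letter sets as a block, and with the pan-endothelial mean subtracted (y axis). Tek, Tie1 and Ptprb stand left of 0 with all libraries and right of 0 without control replicate 3.

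Set against the pan-endothelial mean of the same library, the receptors and the phosphatase varied less across the 6 libraries than on their own. On the log2(FPKM + 1) scale Tek lay at -0.16, -0.29 and -0.33 from that mean in mutant replicates 1, 2 and 3, and at -0.08, -0.29 and -0.33 in control replicates 1, 2 and 3. The whole spread of Tek was thus small, and control replicate 3 no longer stood apart. The difference between groups was -0.03 for Tek, -0.07 for Tie1 and -0.12 for Ptprb, with exact permutation p = 0.7 for Tek, 0.5 for Tie1 and 0.3 for Ptprb (two-sided, n = 3 each). Tie1 ranged from 0.74 to 0.99 above the endothelial mean. It was highest in control replicate 3, and next at 0.87 in mutant replicate 1. Ptprb ranged from -0.04 to 0.27.

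Angpt2 and Foxo1 did not keep a fixed distance from the endothelial genes. Angpt2 lay at -2.26, -2.55 and -2.40 in mutant replicates 1, 2 and 3, and at -2.45, -2.43 and -2.98 in control replicates 1, 2 and 3. Control replicate 3 was the low library here, since Angpt2 was 1.35 times the mean of the other 5 libraries there while the endothelial sum was 1.97 times. The difference of 0.22 had an exact permutation p of 0.4. It fell to 0.04 without control replicate 3 and reached at most 0.31 with other single libraries left out. Foxo1 lay at -1.15, -1.45 and -1.87 in mutants and at -1.27, -1.13 and -1.76 in controls, lowest in mutant replicate 3 and control replicate 3 (difference -0.10, exact permutation p = 0.7). Angpt1 lay between -4.94 in control replicate 3 and -3.51 in control replicate 1. On this scale Angpt1 itself, near the floor, spanned only 0.69 to 1.11, and the endothelial mean 4.51 to 5.63. The range of the relative value therefore rests largely on that mean.

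**Figure D3:**
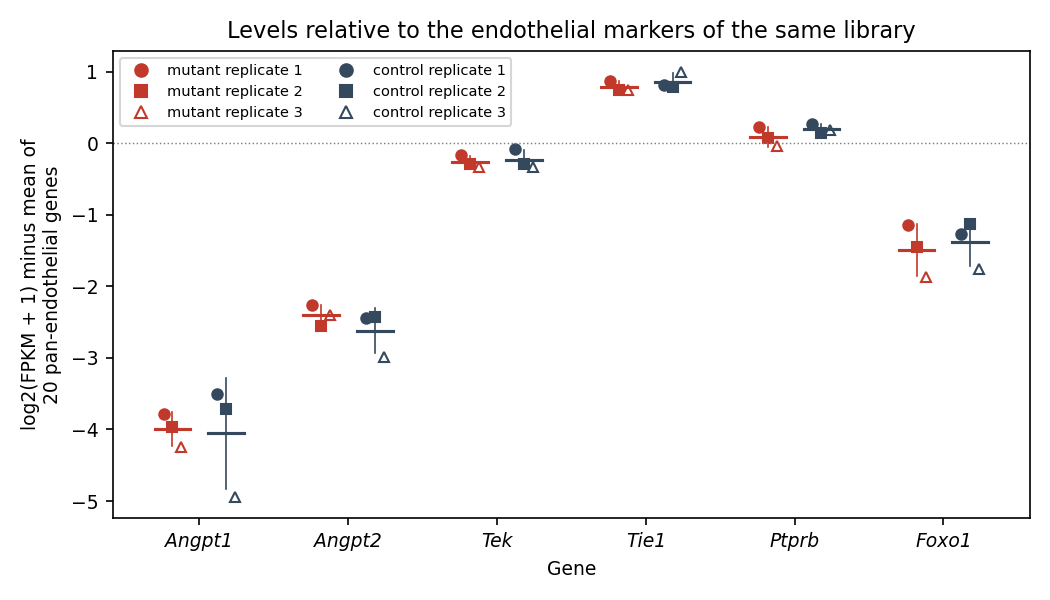
Level of each gene minus the mean of 20 pan-endothelial genes in the same library, on the log2(FPKM + 1) scale, mutants in red left of controls in dark blue, with the group mean (horizontal line) and SD (vertical line, n = 3). The values of Tek, Tie1 and Ptprb span less than those of Angpt1 and Foxo1, and control replicate 3 is the lowest for Angpt2 and Angpt1.

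Ratios within a library compare members of the axis directly. Tie1 was 2.10, 2.10 and 2.15 times Tek in mutant replicates 1, 2 and 3, and 1.90, 2.16 and 2.54 times Tek in control replicates 1, 2 and 3 (exact permutation p = 0.8 on the log2 ratio, two-sided). The mutants were nearly identical and lay inside the range of the controls. Ptprb was 1.33, 1.29 and 1.23 times Tek in mutants and 1.29, 1.37 and 1.44 times Tek in controls (exact permutation p = 0.3).

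Ligand to receptor ratios varied more. Angpt2 was 0.196, 0.171 and 0.209 times Tek in mutant replicates 1, 2 and 3, and 0.158, 0.183 and 0.137 times Tek in control replicates 1, 2 and 3. Mutants were higher except that mutant replicate 2 lay below control replicate 2. The log2 ratio differed by 0.25 (exact permutation p = 0.2). It differed by 0.11 without control replicate 3 and by at most 0.37 with other single libraries left out. Angpt2 exceeded Angpt1 in every library, by 5.35, 4.94 and 7.41 times in mutants and by 3.01, 4.39 and 8.54 times in controls, with the largest ratio in control replicate 3. The exact permutation p for the log2 ratio of the ligands was 0.6. None of these 4 ratios separated the groups.

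Across the wider pathway no gene passed the test. Of all 13622 genes tested, 6469 were higher and 7153 lower in mutants. Of 9 further genes listed for the angiopoietin family and its partners, 4 were tested. These were Angptl2, Angptl4, Angptl6 and Unc13b, none of them an angiopoietin. Of the 4, 2 were higher and 2 lower in mutants, with a median log2 difference of 0.03 against -0.01 for all genes tested. Without control replicate 3, 3 were higher and 1 lower, with a median of 0.08. The remaining angiopoietin, Angpt4, stayed at 0.278 to 0.594 FPKM and Svep1, which encodes a Tie1-binding matrix protein, at 0.109 to 0.182 FPKM, both under the filter. Angptl6 measured 1.77 ± 0.0964 FPKM in mutants and 1.33 ± 0.379 FPKM in controls (SD, n = 3 each), with every mutant above every control, as for 2.79% of all genes tested. Its log2 difference was 0.26 (limma, unadjusted p = 0.147, adjusted p = 1), and 0.12 without control replicate 3. Angptl4, an angiopoietin-like regulator of lipoprotein lipase, measured 11.6 ± 1.76 FPKM in mutants and 12.1 ± 4.90 FPKM in controls, Angptl2 1.76 ± 0.159 FPKM in mutants and 2.13 ± 0.450 FPKM in controls, and the exocytosis factor Unc13b 62.8 ± 4.23 FPKM in mutants and 59.6 ± 2.97 FPKM in controls. The log2 difference of Angptl4 was -0.01, and 0.27 without control replicate 3.

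Of 23 genes of receptor-proximal signalling, 21 were tested, 18 lower and 3 higher in mutants, with a median of -0.06. Named for a small unadjusted p were Ptpn11, which encodes the phosphatase SHP2, at 32.5 ± 3.16 FPKM in mutants and 35.1 ± 1.30 FPKM in controls; Tnip2, whose protein ABIN-2 binds Tie2, at 8.18 ± 1.40 FPKM in mutants and 7.05 ± 1.57 FPKM in controls; and the PI3 kinase regulatory subunit Pik3r1 at 79.7 ± 21.7 FPKM in mutants and 88.6 ± 5.57 FPKM in controls (SD, n = 3 each). The unadjusted limma p of these 3 ran from 0.296 for Ptpn11 to 0.345 for Pik3r1. All 5 integrin genes were lower, with a median of -0.11, among them Itga5 at 13.5 ± 0.678 FPKM in mutants and 17.1 ± 8.15 FPKM in controls and Itgb1 at 66.0 ± 5.31 FPKM in mutants and 76.2 ± 21.7 FPKM in controls. Itgav measured 12.4 ± 1.09 FPKM in mutants and 13.3 ± 2.10 FPKM in controls, and Itgb5 17.8 ± 2.31 FPKM in mutants and 19.2 ± 2.08 FPKM in controls. Without control replicate 3, 1 of the 5 was lower, and the signalling count became 14 of 21.

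All 7 genes of VE-PTP partners and related phosphatases were lower, with a median of -0.12. VE-cadherin (Cdh5), a substrate of VE-PTP, measured 61.0 ± 4.69 FPKM in mutants and 74.4 ± 33.5 FPKM in controls, and plakoglobin (Jup) 13.7 ± 2.18 FPKM in mutants and 16.2 ± 5.26 FPKM in controls (SD, n = 3 each). The tyrosine phosphatase Ptpn1 measured 19.2 ± 0.774 FPKM in mutants and 21.0 ± 1.36 FPKM in controls and Ptprj 3.43 ± 0.0273 FPKM in mutants and 3.72 ± 0.498 FPKM in controls. Without control replicate 3, 2 of the 7 were lower. All 20 pan-endothelial genes were lower as well, with a median of -0.15, and none of the 20 was lower without that library. The part of endothelial content in these counts was not tested.

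Of 20 known or proposed FOXO1 targets, 18 were tested, 16 lower and 2 higher, with a median of -0.11. The insulin receptor substrate Irs2 measured 9.09 ± 1.16 FPKM in mutants and 10.5 ± 1.86 FPKM in controls, cyclin D2 (Ccnd2) 5.42 ± 0.112 FPKM in mutants and 6.40 ± 1.46 FPKM in controls, the stress protein gene Sesn3 36.7 ± 2.95 FPKM in mutants and 39.7 ± 1.27 FPKM in controls, and the proapoptotic Bcl2l11 7.25 ± 1.07 FPKM in mutants and 8.44 ± 1.97 FPKM in controls (SD, n = 3 each). Their unadjusted limma p ran from 0.254 for Ccnd2 to 0.316 for Bcl2l11, and every adjusted p was 1. Without control replicate 3, 12 of the 18 were lower. The 5 tested genes of the axis had a median of -0.21, and of 0.14 without control replicate 3.

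**Figure D4:**
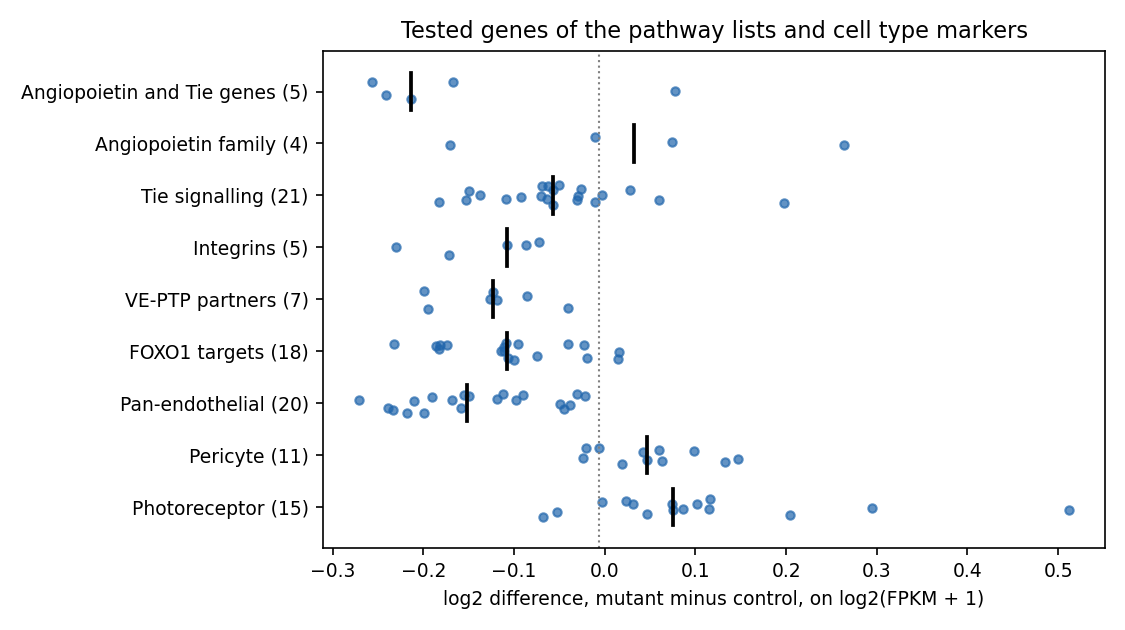
Log2 difference, mutant minus control, of each tested gene (points, x axis) by gene list (y axis, with the number tested), with the median of the list as a black bar and the median of all 13622 tested genes as a dotted line. The medians of the 9 lists drawn lie between -0.21 for the angiopoietin and Tie genes and 0.08 for the photoreceptor genes, and no point is a gene that passed the test.

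The genes whose profiles over the 6 libraries were most like each member were found by the root mean square difference of log2(FPKM + 1) values, each centred on its own mean, among 10097 other tested genes with a mean of at least 5 FPKM (10098 for Angpt2, whose own mean is lower). These profiles share libraries, depth and cell content. Ptprb was closest to Cdh5, at 0.03, and then to the junction gene F11r and to Ahnak, at 0.05 each. Tek was closest to the ETS factor genes Ets1, at 0.04, and Fli1, at 0.05, and then to the TGF-beta receptor Tgfbr2 at 0.05. Tie1 was closest to the forkhead gene Foxq1, the protease gene Htra3 and Vwf, the von Willebrand factor gene, at 0.04, 0.04 and 0.05. Within the axis Ptprb and Tek differed by 0.07, Ptprb and Tie1 by 0.09, and Tek and Tie1 by 0.13. Many genes outside the axis were closer. Ptprb ranked 25 in likeness to Tek and 30 to Tie1, while Tie1 ranked 219 for Tek and Tek 99 for Tie1.

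Angpt2 and Foxo1 had other neighbours. Angpt2 was closest to Mir3058, Tpm3 and Mta3, at 0.04, 0.06 and 0.06, which like Angpt2 were high in mutant replicate 3 and control replicate 3 alike. Tpm3, a tropomyosin gene, measured 11.6, 12.2 and 15.8 FPKM in mutant replicates 1, 2 and 3, and 11.1, 10.2 and 15.5 FPKM in control replicates 1, 2 and 3. Foxo1 was closest to Bcl2l11 at 0.04, then to Lrrc58 and to Elk4, an ETS factor gene, at 0.05 each. Bcl2l11, one of the listed FOXO1 targets, measured 8.36, 7.15 and 6.24 FPKM in mutant replicates 1, 2 and 3, and 7.14, 7.47 and 10.7 FPKM in control replicates 1, 2 and 3, so both genes were highest in control replicate 3 and lowest in mutant replicate 3. Between Foxo1 and the other tested genes of the axis the difference was 0.24 to 0.31, larger than the 0.23 by which Foxo1 itself varied over the libraries.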

How the data were processed

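The values are FPKM as deposited, with a column for each library. DESeq2, Cufflinks 2.2.1, STAR 2.5.0b and bedtools 2.17.0 on mm10 are named, per the submitters' processing notes, with no roles. Median-of-ratios factors of the deposited values were 1.00216 in all 6 libraries, so the values were already on that scale. The depth factors behind them were not the read totals, at 27817341 against 26458392 in mutant replicate 3 and 30864448 against 30904076 in control replicate 1. The gene annotation and the use of strand are not stated there. Low FPKM values were whole multiples of 1 read. With depth factors from miRNA genes, each of the 16491 rows with no 0 gave whole reads in all 6 libraries (tolerance 0.002 reads, and up to 0.05 for high counts). Differences on log2(FPKM + 1) were tested with limma 3.58.1 (R 4.3.3, trended prior) for the 13622 genes that reached 1 FPKM in 3 or more libraries. Tests were two-sided, p-values were adjusted over all genes by Benjamini-Hochberg, and the threshold was 0.05. This scale understates changes of low genes. Single values were tested by exact permutation. On simulated data for mutant against control, the fit over 13622 genes recovered 26% of genes changed 1.5-fold and 70% of those changed 2-fold. It also made 9 false calls. The simulated noise was drawn separately for each gene, with no shift shared by the genes of a library. These shares therefore do not give the power for the 6 genes. Genes named from each pathway list are the 4 tested genes with the smallest unadjusted p, and for each tested member the 3 with the most similar profile. A gene that this rule names is not reported here. Other names were chosen after their values were seen. Positions are GENCODE M21 on GRCm38, which is mm10. Members and lists were chosen with earlier results of these data known. Python 3.11.15 was used for reads and permutation tests.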

Additional observations from a re-analysis of the deposited data

How the results depend on the processing

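The number of genes called was 0 under 14 of 15 alternatives and 145 with library weights, whose estimation stopped before it converged. None of the 5 tested genes was called under any alternative run. Angpt1 entered a fit only with no filter on low values, where it was not called. Elsewhere it had permutation tests alone, which cannot give a p under 0.05 with so few libraries. Over single omitted libraries the log2 differences ran from -0.170 to 0.0395 for Angpt1, from -0.0393 to 0.252 for Angpt2, from -0.40 to 0.14 for Tek, from -0.46 to 0.21 for Tie1, from -0.490 to 0.0917 for Ptprb and from -0.33 to -0.07 for Foxo1. Library weights, which were lowest for control replicate 3 (0.26), gave 0.14 for Tek, 0.13 for Tie1 and 0.0647 for Ptprb. With the letter sets as a block all 5 tested genes were lower, with a median of -0.35, Angpt2 stood at -0.0233, and relative to the endothelial mean Tek stood at 0.0206 and Foxo1 at 0.0778. With the endothelial mean subtracted Angpt1 stood at 0.0565, and with a pseudocount of 0.1 at -0.00597 relative to that mean. Values relative to the endothelial mean ran, over single omitted libraries, from -0.39 to 0.33 for Angpt1, from -0.0774 to 0.0483 for Tek and from -0.288 to 0.0892 for Foxo1. The log2 ratio of Angpt2 to Angpt1 ran from -0.0266 to 0.422 and that of Tie1 to Tek from -0.147 to 0.0688. The cause of these changes was not tested. Foxo1 kept its direction under all 15 alternatives, but some of these could not change it. The replicate block and the fit with no filter on low values leave a difference of group means as it is. Median-of-ratios factors were equal in all 6 libraries, so Foxo1 stayed at -0.24 there too. Within letters A to C, with 1 mutant library, Foxo1 was higher in the mutant, at 0.08. Same-numbered libraries deviated with correlations over genes of 0.25, -0.15 and 0.39, and differently numbered ones with -0.35 to 0.23. The labels give no shared animal, litter or day, so the numbers were not taken as pairs. With the replicate block 0 genes were called. Each number holds a single mutant and a single control library, so the differences must equal those without the block, at -0.17 for Tek and -0.21 for Tie1. The edgeR and DESeq2 count tests were not run on FPKM, and voom on recovered reads called 0 genes. Angpt1 gave no value with quantile normalization, library weights or voom, being under the filter. For Angpt1, with 68 to 155 reads, counting error limits the precision.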
